A study of Populus trichocarpa with 12 samples.

Results

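The HCT, C3H, CSE and CCoAOMT loci serve the ring steps of lignin precursor synthesis, where the aromatic ring is hydroxylated and methylated. The loci were examined in developing xylem of black cottonwood (Populus trichocarpa), the layer of young wood cells that is laying down its secondary wall. They are 8 loci of 41335 in the deposited table, taken by identifier: HCT1 (Potri.003G183900), HCT6 (Potri.001G042900), C3H3 (Potri.006G033300), CSE1 (Potri.003G059200), CSE2 (Potri.001G175000), CCoAOMT1 (Potri.009G099800), CCoAOMT2 (Potri.001G304800) and CCoAOMT3 (Potri.008G136600). The names come from the list of loci and not from the deposited table, and the first number in an identifier is the chromosome. RNA was sequenced from 9 transgenic trees that overexpressed miR397a, a microRNA known to target laccase mRNAs, under the CaMV 35s promoter, and from 3 wild-type trees. All trees were of the Nisqually-1 background and grown in a greenhouse, and no age is given for them in the labels. Each transgenic line (numbered 1, 3, 5, 6, 9, 10, 17, 26 and 30) is a single tree, and the promoter is active in most tissues and not confined to xylem. The reads are from a whole tissue, so fewer cells of a type and less RNA per cell cannot be told apart.

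Lignin is polymerised in the wall from monolignols, which are made in the cell from phenylalanine. HCT joins a coumaroyl group to shikimate, C3H (a cytochrome P450 of the CYP98 family) adds a hydroxyl to its ring, and CSE releases caffeate from the resulting caffeoyl shikimate. At a later step, not directly on caffeate, CCoAOMT methylates caffeoyl-CoA to feruloyl-CoA, the route to guaiacyl and syringyl units. Laccases act afterwards, outside the cell, where they oxidise the finished monolignols.

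The libraries held 8015226 to 34112839 reads over loci in the lines and 12580140 to 23611857 in wild type, and the 8 loci took 0.566% to 0.804% of them in the lines and 0.500% to 0.668% in wild type. The smallest count of any of the 8 in a library was 1087 reads (CSE2 in line 5). A stretch of 9 neighbouring loci on chromosome 5 took 1.14% to 18.7% of the reads in the lines and 2.80% to 18.9% in wild type, and libraries were therefore also compared within the 6 with a low share (5 lines and wild-type tree 2) and the 6 with a high share (4 lines and wild-type trees 1 and 3). As a check of the tissue, 5 loci listed as secondary-wall cellulose synthases all lay among the 187 most abundant of 26298 tested loci. Their summed level was 6705 ± 608 CPM in the lines and 5900.4 ± 304 CPM in wild type (SD, n = 9 and n = 3). Markers of phloem, cambium and green tissue were not analysed here, because the sources used here do not describe the loci.

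The comparison of lines with wild type asks whether transcripts of these ring steps differ in wood in which miR397a is raised and laccase mRNAs are its known targets. The ring-step loci stood close to their wild-type levels. Of the 8, 7 had a higher and 1 a lower mean in the lines, and fitted changes ran from 0.992-fold for CSE1 to 1.22-fold for HCT1. With the edgeR quasi-likelihood test 0 of the 8 were called at a Benjamini-Hochberg adjusted p below 0.05 (0 higher and 0 lower). Of all tested loci, 0.0913% were called, 0.0114% as higher and 0.0799% as lower. These are 3 higher and 21 lower loci with edgeR, beside 72 higher and 59 lower with DESeq2 and 11 higher and 54 lower with edgeR without line 1. At an unadjusted p below 0.05, 1 of the 8 passed (HCT1, higher), where 11.0% of all tested loci passed in either direction and 5.89% as higher. This count was 0 without wild-type tree 1, without wild-type tree 2 or without lines 5, 17 and 30. It was 2 (HCT1 and CCoAOMT3) without line 1, without wild-type tree 3, with library totals or in limma-voom with sample quality weights. With the chromosome 5 share as covariate it was 3 (HCT1, C3H3 and CCoAOMT3). DESeq2 and limma-voom without quality weights also called 0 of the 8, where they called 0.508% and 0.0799% of all tested loci. Each had 1 unadjusted p below 0.05 among the 8. The median log2 fold change of the 8 was 0.08, beside -0.00016 over all tested loci and 0.04 over the 1642 loci with a mean of at least 100 CPM. The groups overlapped at every one of the 8 loci, while 2.95% of all tested loci had groups that did not overlap, 1.76% with the lines higher and 1.18% with the lines lower.

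**Figure D1:**
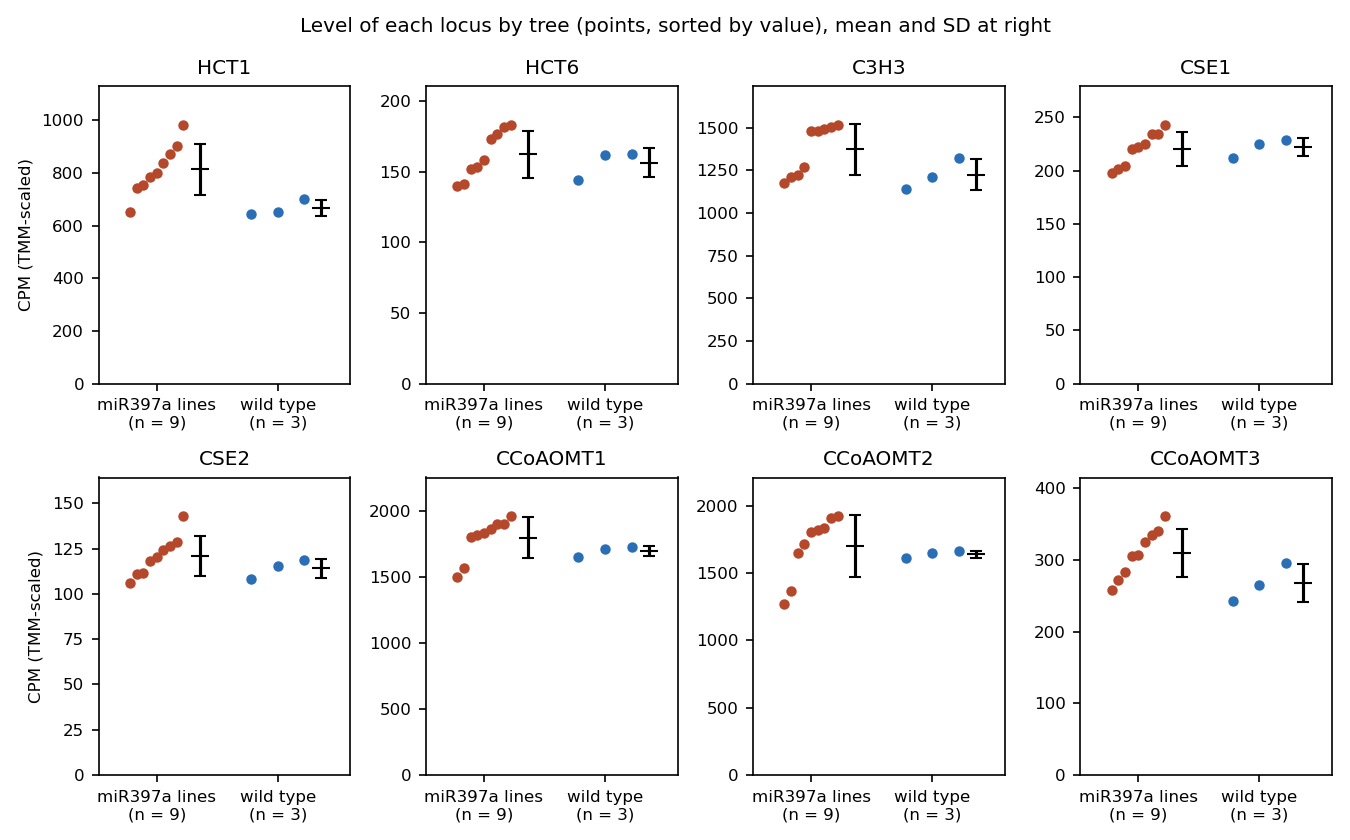
Level of each of the 8 loci in each tree, in CPM after TMM scaling (vertical axes start at 0 and differ between panels), for the 9 miR397a lines (red) and the 3 wild-type trees (blue). Black marks are the mean and SD. HCT1 lies above every wild-type tree in 8 of the 9 lines, and at the other loci 3 to 7 lines do so.

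HCT1, one of a pair of hydroxycinnamoyltransferase loci, had the largest change of the 8. In the lines it had 652 CPM in line 1 (lowest), a median of 801 CPM and 984 CPM in line 30 (highest), against 653, 644 and 700.1 CPM in wild-type trees 1, 2 and 3. All lines but line 1 lay above the highest wild-type tree. The means were 815 ± 97.7 CPM in the lines and 666 ± 29.9 CPM in wild type (SD, n = 9 and n = 3). The log2 fold change of HCT1 was 0.29 ± 0.11 (SE), a 1.22-fold level with a 95% interval of 1.03 to 1.45 that is not adjusted over loci, and it was not called (edgeR adjusted p = 0.39). Without lines 5, 17 and 30, which include the 2 highest values of HCT1, the log2 fold change was 0.22 (edgeR adjusted p = 0.319). It was 0.33 in the libraries with a low share on the chromosome 5 stretch and 0.26 in those with a high share.

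HCT6 is its paralog on chromosome 1. It ranged from 140.2 CPM in line 17 over a median of 158 CPM to 183 CPM in line 30, against 144, 163 and 162 CPM in wild-type trees 1, 2 and 3. Above the highest wild-type tree lay 4 lines, and 2 lay below the lowest. The log2 fold change of HCT6 was 0.05 ± 0.10 (SE; 95% interval of the fold 0.899 to 1.197; edgeR adjusted p = 0.864). Within the low-share libraries it was -0.09 and within the high-share libraries 0.17.

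The ratio of reads at HCT1 to reads at HCT6 within a tree does not depend on how libraries are scaled. Since transcript lengths were not used here, the ratio itself does not compare molecules, but its change between trees does not depend on length. The ratio was 4.60, 4.32, 5.92, 4.84, 4.77, 4.94, 5.72, 4.84 and 5.37 in lines 1, 3, 5, 6, 9, 10, 17, 26 and 30, against 4.52, 3.95 and 4.33 in wild-type trees 1, 2 and 3. The highest were lines 5, 17 and 30, and line 3 lay within the wild-type range. The mean was 5.03 ± 0.53 in the lines and 4.27 ± 0.29 in wild type (SD, n = 9 and n = 3), 1.18-fold higher on the log scale (exact permutation test over 220 splits, two-sided, p = 0.0364; adjusted over 5 paralog ratios p = 0.182). Without lines 5, 17 and 30 the ratio was 1.11-fold higher (exact permutation p = 0.0357, adjusted p = 0.179, smallest possible 0.0119). The log2 difference was 0.41 in the low-share libraries, with their lone wild-type tree, and 0.09 in the high-share libraries.

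C3H3, the hydroxylase, had 1177 CPM in line 1 (lowest), a median of 1478 CPM and 1518 CPM in line 26 (highest), against 1214, 1139 and 1325 CPM in wild-type trees 1, 2 and 3. Lines 1, 6, 9 and 17 lay within the wild-type range, at up to 1268 CPM, and the other 5 lay above it, at 1478 CPM or more. The log2 fold change of C3H3 was 0.16 ± 0.11 (SE; 95% interval of the fold 0.952 to 1.32; edgeR adjusted p = 0.592).

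Of the caffeoyl shikimate esterases, CSE1 had the smallest spread among the lines of all 8 loci. It ranged from 197 CPM in line 6 over a median of 222 CPM to 243 CPM in line 30, against 225, 212 and 229 CPM in wild-type trees 1, 2 and 3. Its lines were split evenly, 3 above, 3 within and 3 below the wild-type range, and the log2 fold change of CSE1 was -0.01 ± 0.08 (SE; 95% interval of the fold 0.881 to 1.12; edgeR adjusted p = 0.971). CSE2 ranged from 106 CPM in line 6 over a median of 121 CPM to 143 CPM in line 26, against 119, 115 and 108 CPM in wild-type trees 1, 2 and 3. It lay above the wild-type range in 5 lines, and the log2 fold change of CSE2 was 0.09 ± 0.09 (SE; 95% interval of the fold 0.931 to 1.21; edgeR adjusted p = 0.737). The ratio of CSE1 to CSE2 reads was 1.82 ± 0.10 in the lines and 1.95 ± 0.14 in wild type (SD, n = 9 and n = 3; exact permutation test, two-sided, p = 0.141, adjusted p = 0.222).

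**Figure D2:**
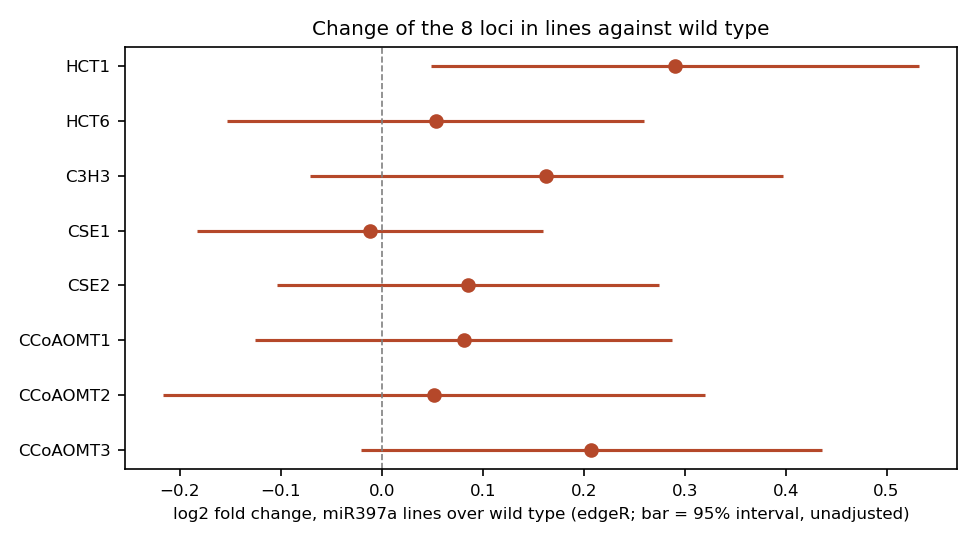
Log2 fold change of each of the 8 loci, miR397a lines (n = 9) over wild type (n = 3), from edgeR. Points are estimates and bars are 95% intervals that are not adjusted over loci. The interval of HCT1 (0.05 to 0.53) lies above 0 and the other 7 include it.

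CCoAOMT1 and CCoAOMT2, 2 of the 3 methyltransferase loci, were lowest in the same 2 lines. CCoAOMT1 ranged from 1505 CPM in line 1 over a median of 1838 CPM to 1962 CPM in line 26, against 1713, 1657 and 1729.6 CPM in wild-type trees 1, 2 and 3. CCoAOMT2 ranged from 1274 CPM in line 1 over a median of 1809 CPM to 1923 CPM in line 3, against 1613, 1664 and 1648 CPM in wild type. At both loci lines 1 and 17 lay below every wild-type tree and most other lines above: 7 of 9 at CCoAOMT1 and 6 of 9 at CCoAOMT2. Their log2 fold changes were 0.08 ± 0.10 for CCoAOMT1 (95% interval of the fold 0.917 to 1.22; edgeR adjusted p = 0.778) and 0.05 ± 0.13 for CCoAOMT2 (0.861 to 1.25; edgeR adjusted p = 0.903).

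CCoAOMT3 ranged from 259 CPM in line 1 over a median of 307 CPM to 361 CPM in line 10, against 266, 243 and 296 CPM in wild-type trees 1, 2 and 3. It lay above the wild-type range in 6 lines, lines 1, 6 and 9 lay within it, and none lay below. The log2 fold change of CCoAOMT3 was 0.21 ± 0.11 (SE; 95% interval of the fold 0.986 to 1.35; edgeR adjusted p = 0.492), and it was 0.28 in the low-share and 0.20 in the high-share libraries. Line 17, below wild type at the other 2 methyltransferase loci, stood at 307 CPM at CCoAOMT3. The ratio of CCoAOMT1 to CCoAOMT3 reads was 5.84 ± 0.53 in the lines and 6.37 ± 0.49 in wild type, and that of CCoAOMT2 to CCoAOMT3 5.51 ± 0.68 in the lines and 6.16 ± 0.64 in wild type (SD, n = 9 and n = 3). Neither difference passed an adjusted p below 0.05 (exact permutation tests, two-sided, p = 0.15 and p = 0.177, adjusted p = 0.222 for both). At each of the 2 ratios 5 lines lay below the lowest wild-type tree. Above the highest lay 1 line for CCoAOMT1 over CCoAOMT3 and 0 for CCoAOMT2 over CCoAOMT3. The ratio of CCoAOMT1 to CCoAOMT2 was 1.06 ± 0.07 in the lines and 1.04 ± 0.04 in wild type (exact permutation p = 0.532, also after adjustment).

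**Figure D3:**
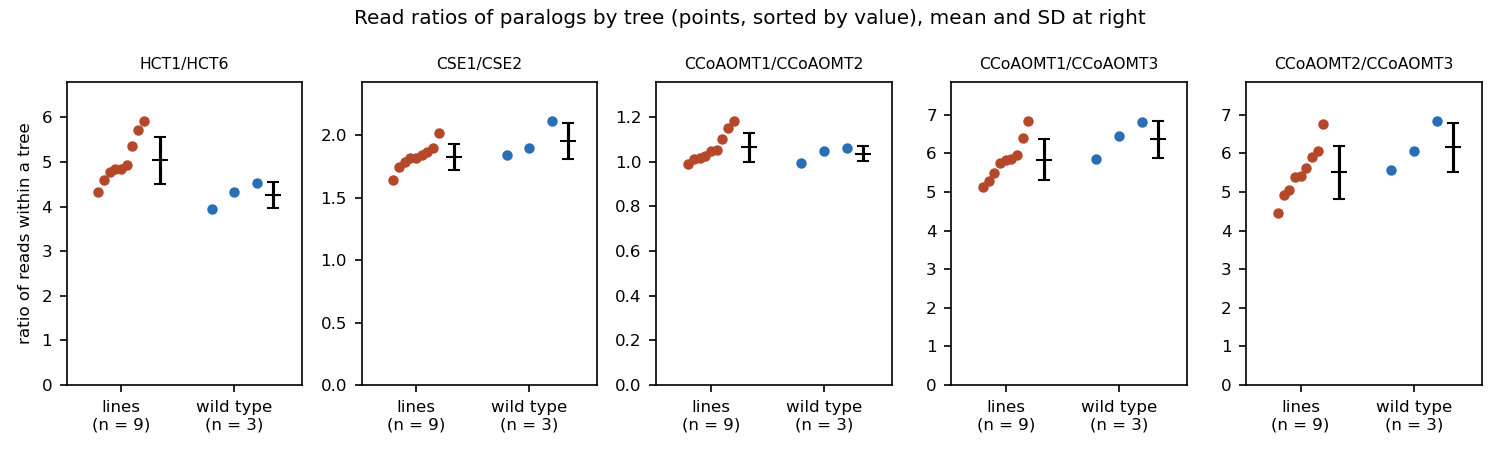
Ratio of reads at 2 loci of a family within each tree (vertical axes start at 0 and differ between panels) for the 9 miR397a lines (red) and the 3 wild-type trees (blue), with the mean and SD in black. HCT1 over HCT6 is above every wild-type tree in 8 of 9 lines, and at the other 4 ratios at most 6 lines lie beyond the wild-type trees on one side.

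The make-up of the reads of the 8 loci was compared in the same way, a description added after the values were seen. HCT1 took 12.5 ± 1.06% of them in the lines and 11.1 ± 0.17% in wild type (SD, n = 9 and n = 3), with 8 of 9 lines above the highest wild-type tree (exact permutation test, two-sided, p = 0.0364, adjusted over the 8 p = 0.145). CSE1 took 3.40 ± 0.20% in the lines and 3.70 ± 0.08% in wild type, with 8 of 9 lines below the lowest wild-type tree (exact permutation p = 0.0318, adjusted p = 0.145). Line 1 was the exception for CSE1, at 3.78%. Without line 1 the log2 difference of the CSE1 share was -0.15 (exact permutation p = 0.00606, the smallest possible, adjusted p = 0.0485). Leaving out the only line that overlapped wild type separates the groups, so this p cannot serve as a test of the CSE1 share. A share depends on all 8 loci: the level of CSE1 itself had log2 fold changes of -0.01 with line 1 and 0.0043 without it, so its lower share is one relative to the other 7 loci. The other 6 loci had unadjusted p from 0.186 to 0.664.

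Levels of the 8 loci were positively correlated across the lines. Line 1 was the lowest line at 5 of the 8 loci (HCT1, C3H3 and the 3 CCoAOMT loci), line 6 at both CSE loci and line 17 at HCT6. Lines 3, 26 and 30 lay above every wild-type tree at all 8 loci, and line 10 at 7 of them. Lines 1 and 17 each lay below every wild-type tree at 4 loci. The share of all tested loci at which each line lay beyond the wild-type trees was not computed. The counts therefore cannot be read as particular to these 8 loci. Lines 3, 10 and 26 were also the lines with the highest share on the chromosome 5 stretch (12.99%, 16.8% and 18.7%), whereas lines 30, 1 and 17 had 1.27%, 3.91% and 1.14%. Over the 9 lines the log2 of this share had a Pearson r of 0.64 with CSE2, 0.60 with CCoAOMT1, 0.57 with CCoAOMT2, 0.48 with HCT6, 0.42 with C3H3, 0.31 with CCoAOMT3, 0.28 with CSE1 and -0.15 with HCT1. These are descriptions, and the part of the share in the pattern was not tested. The summed level of the 8 loci was lowest in line 1 (5320 CPM) and highest in line 26 (7122 CPM), and averaged 6500.3 ± 633 CPM in the lines and 5994 ± 184 CPM in wild type (SD, n = 9 and n = 3).

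**Figure D4:**
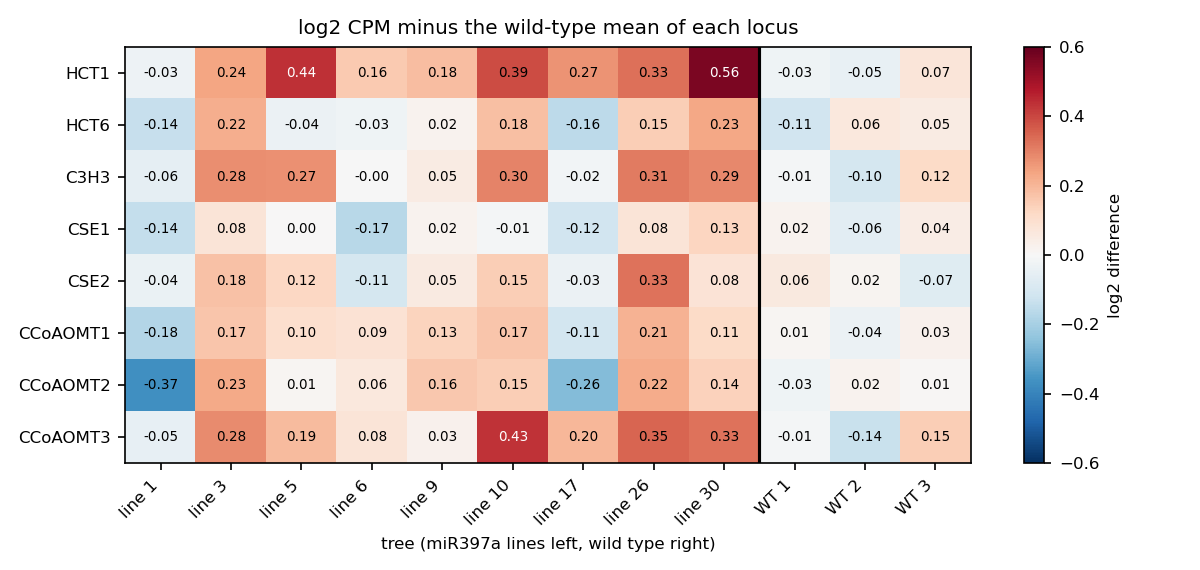
Log2 CPM of each locus in each tree minus the mean log2 CPM of the 3 wild-type trees at that locus, with the 9 miR397a lines left of the black line and wild type right of it. Colours run from blue (lower) to red (higher). The lowest cells are CCoAOMT2 in lines 1 and 17 (-0.37 and -0.26), and the highest is HCT1 in line 30 (0.56).

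The spread among lines was larger than among wild-type trees at each of the 8 loci, which was not tested. The coefficient of variation of CPM ran from 7.27% (CSE1) to 13.7% (CCoAOMT2) among the 9 lines and from 1.58% (CCoAOMT2) to 9.80% (CCoAOMT3) among the 3 wild-type trees. Counting alone gives 0.578% (CCoAOMT1) to 2.24% (CSE2) in the lines. The highest line had 1.23 times (CSE1) to 1.51 times (CCoAOMT2) the level of the lowest. The biological coefficient of variation that edgeR fitted over all 12 trees was 10.4% (CSE1) to 17.0% (CCoAOMT2). Among the 500 tested loci nearest in abundance, 12.2% had a lower one than CSE1 and 72.2% a lower one than CCoAOMT2.

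All 28 pairs of the 8 loci had a positive Pearson r of log2 CPM over the 9 lines, from 0.48 to 0.98 with a median of 0.73. These are descriptions without a test, and the values of a pair share libraries and scaling factors. No r for pairs of other loci was set beside them, so they do not show that the 8 are especially alike. The highest was that of CCoAOMT1 and CCoAOMT2 (0.98 over 9 lines, 0.95 over 12 trees). Whether reads were shared between these paralogs was not tested, and the sources used here do not say how multiply aligned reads were handled. The r of either with CCoAOMT3 was 0.62 and 0.58 over the lines. HCT1 had its highest r over the lines with C3H3 (0.78) and CCoAOMT3 (0.77) and its lowest with CSE2 (0.48), and its r with HCT6 was 0.59. C3H3 had r of at least 0.73 with each of the other 7 loci.

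**Figure D5:**
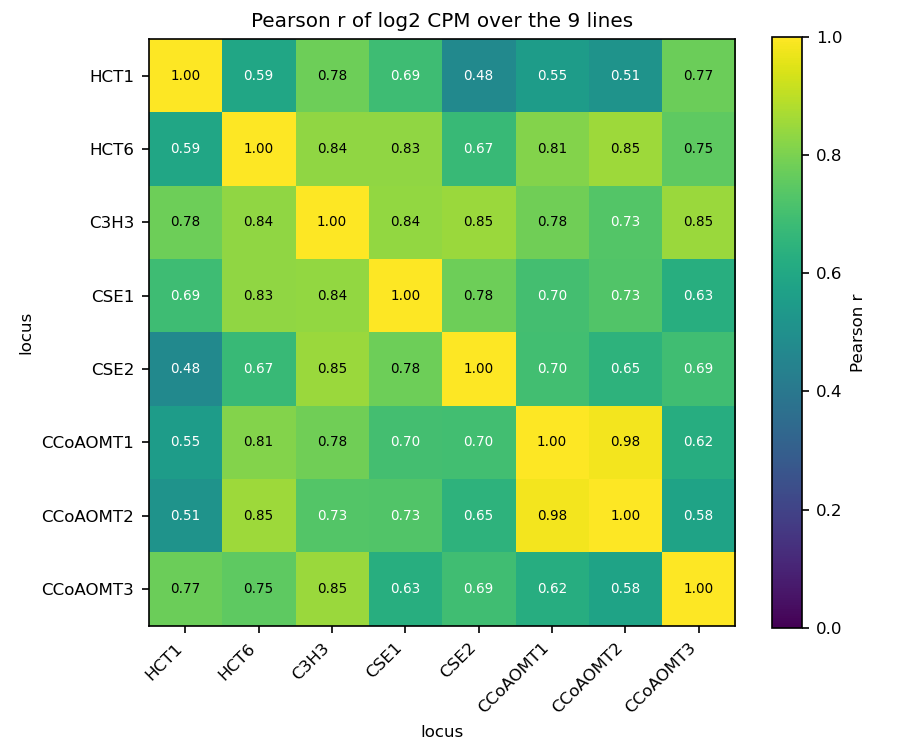
Pearson r of log2 CPM over the 9 miR397a lines for each pair of the 8 loci (colour and printed value, scale 0 to 1). The pair CCoAOMT1 and CCoAOMT2 stands highest at 0.98 and HCT1 with CSE2 lowest at 0.48.

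Among 14532 other loci with a mean log2 CPM of at least 3, those most alike in pattern over the 12 trees were found for each member by Pearson r. For HCT1 they were Potri.003G205500 and Potri.001G314800 (r = 0.96 each), for HCT6 Potri.002G239400 (0.94) and Potri.010G187600 (0.92), and for C3H3 Potri.018G116100 and Potri.010G224100 (0.97 each). For CSE1 they were Potri.015G146900 (0.82) and Potri.012G057500 (0.81), and for CSE2 Potri.017G002700 (0.96) and Potri.018G062700 (0.95). CCoAOMT1 was most like Potri.004G188100 (0.98) and CCoAOMT2 (0.95), and CCoAOMT2 most like CCoAOMT1 and Potri.004G188100 (0.93). For CCoAOMT3 they were Potri.002G038800 (0.97) and Potri.016G138900 (0.95). An r above 0.9 was reached by 64 loci with HCT1, 46 with C3H3, 21 with CCoAOMT3, 20 with CCoAOMT1, 6 with CCoAOMT2, 3 with HCT6, 2 with CSE2 and 0 with CSE1. In this order of likeness the closest other member ranked 1 for CCoAOMT2, 2 for CCoAOMT1 and 25 for CCoAOMT3. It ranked 40 for HCT6, 54 for C3H3, 59 for CSE1, 211 for HCT1 and 230 for CSE2.

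The other steps of the pathway were read from a list of 14 loci set down by identifier. They stand for the entry steps and for the reductase, hydroxylases, methyltransferase and dehydrogenase that follow. The sources used here do not annotate these loci, so none is named by function. With edgeR none was called (0 of 14), and the unadjusted p was below 0.05 at 2, both higher. DESeq2 likewise called 0, with 6 such loci, all higher, where 6.15% of all tested loci had such a p and were higher. All 14 had a positive log2 fold change, as had 49.96% of all tested loci and 61.4% of those with a mean of at least 100 CPM. The values ran from 0.03 to 0.33 with a median of 0.20, beside 0.08 for the ring-step loci. Without lines 5, 17 and 30, 13 of the 14 were positive, with a median of 0.16. The sum of the 14 was 17727 ± 1672 CPM in the lines and 15517 ± 537 CPM in wild type (SD, n = 9 and n = 3). The 5 listed cellulose synthase loci also had positive log2 fold changes, from 0.11 to 0.25, and 0 were called (edgeR; 1 unadjusted p below 0.05; 0 called by DESeq2, with 2 such p). The part of this in the values of the ring-step loci was not tested. Of the 8, C3H3 followed the sum of the 14 most closely (Pearson r = 0.95 over the 9 lines, no test), and HCT1 (0.82), CCoAOMT3 (0.81) and CSE2 (0.81) least. Potri.010G224100, named above among the loci most alike to C3H3, is among the 14 and thus part of this sum.

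The loci that were lower in the lines were not equally low in every line, which allowed a graded comparison. The 6 loci called lower on chromosome 3 were left out of the sum. The summed level of the 15 loci called lower elsewhere was lowest in line 6 (532 CPM) and highest in line 1 (899.8 CPM). It stood at 2143 to 2532 CPM in wild type. These 15 were chosen on the difference between lines and wild type in the same libraries. Across the 9 lines, 0 of the 8 ring-step loci had a correlation with this sum that passed an adjusted p below 0.05 (exact permutation over pairings, adjusted over the 8) or an unadjusted p below 0.05. The strongest was CCoAOMT1 (Pearson r = -0.59, exact permutation p = 0.0828, adjusted p = 0.367; Spearman rho = -0.38, exact permutation p = 0.3125, adjusted p = 0.833). CCoAOMT2 had r = -0.58 (exact permutation p = 0.0917, adjusted p = 0.367; rho = -0.47, p = 0.213, adjusted p = 0.833), and the other 6 had r from -0.35 to 0.07. Without line 6 the unadjusted p fell below 0.05 at 4 loci and the adjusted p at 0: CCoAOMT1 (r = -0.81, exact permutation p = 0.0103, adjusted p = 0.0663), CCoAOMT2 (r = -0.79, p = 0.0166, adjusted p = 0.0663), C3H3 (r = -0.71, p = 0.0336, adjusted p = 0.0789) and HCT6 (r = -0.71, p = 0.0394, adjusted p = 0.0789). Without line 1, r was weaker for CCoAOMT1 (-0.34, exact permutation p = 0.376) and CCoAOMT2 (-0.32, exact permutation p = 0.399). It was then -0.13 for HCT6 and positive for HCT1 (0.30), C3H3 (0.13), CSE1 (0.42), CSE2 (0.33) and CCoAOMT3 (0.11). Lines 6 and 1 had the sums farthest from the median, and without them r was -0.65 for CCoAOMT1 and -0.60 for CCoAOMT2. With library totals in place of TMM scaling, r over the 9 lines turned positive at the 6 loci where it had been negative with TMM. The strongest was CSE2 (r = 0.83, exact permutation p = 0.00639, adjusted p = 0.0511). The scaling of a library enters both the locus and the sum. The TMM factors left out here ran from 0.797 in line 26 to 1.199 in line 17. Their part in the positive r was not tested.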

How the data were processed

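The authors deposited 1 table of raw counts, 73013 transcript models by 12 trees. Libraries were made with an Illumina TruSeq kit from CTAB-extracted RNA, per the labels' protocols. The submitters' processing notes list bedtools 2.14.2, Bowtie, TopHat and TopHat2 2.0.3 without roles. Neither names a genome build or says how multiply aligned reads were handled. Reads common to several models were counted in each, so the model with the most reads was kept per locus. At each of the 8 loci, the model with the fewest reads held at least 93.0% as many as the model kept.

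Loci were filtered with filterByExpr (minimum count 10), TMM-scaled and tested in edgeR 4.0.16 (R 4.3.3) by robust quasi-likelihood fits of lines against wild type over all 12 trees. Adjustment was Benjamini-Hochberg over 26298 loci, and the SE is the log2 fold change divided by the square root of F. Alternatives used DESeq2 1.42.0, limma 3.58.1 and sva 3.50.0. Log2 CPM for pairs of loci used a prior count of 2. Ratios and correlations were tested by exact permutation over trees. The fit and the permutation test were also run on simulated data. The outcome is not given here, so how small a change the fit could call is not stated.

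The members and lists were chosen with earlier results of these data known. Named are the 8 members and, for each, the 2 loci most alike. Planned but not run, since no descriptions or sequences could be matched, were the laccase sum (replaced by the 15 lower loci after the data were seen), the other family members, markers of other tissues and promoter motifs.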

Additional observations from a re-analysis of the deposited data

How the results depend on the processing

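The count of called ring-step loci was 0 under every alternative run (scaling, filters, DESeq2, limma-voom with and without quality weights, transcript models, the chromosome 5 stretch as covariate or left out, surrogate variables, each tree left out, and lines 5, 17 and 30 left out together), and that of the 5 paralog ratios was 0 under each of theirs (each tree left out, lines 5, 17 and 30 left out, transcript model with suffix 1). The log2 fold change of HCT1 was 0.22 to 0.37 over 26 fits, with an unadjusted p below 0.05 in 23 (adjusted p 0.115 to 0.94). The changes of HCT6 and CSE1 had no stable sign: HCT6 spanned -0.00071 to 0.084 with 1 tree left out and was -0.087 in low-share libraries, and CSE1 spanned -0.043 to 0.0096 with 1 tree left out and was 0.070 with library totals, 0.0084 with the share as covariate and 0.0053 and 0.0086 in low- and high-share libraries. In low-share libraries CSE2 (-0.011) and CCoAOMT2 (-0.10) also turned. In the make-up of the 8 loci, 0 to 1 loci were called with 1 tree left out. The 1 was CSE1 without line 1, the only line whose CSE1 share overlapped wild type. The CSE2 difference in the make-up spanned -0.091 to 0.0051. The correlation with the 15 lower loci turned with library totals for HCT1 (0.54), HCT6 (0.49), C3H3 (0.56), CCoAOMT1 (0.44), CCoAOMT2 (0.087) and CCoAOMT3 (0.51). With 1 line left out r spanned -0.56 to 0.30 for HCT1, -0.71 to 0.13 for C3H3, -0.55 to 0.42 for CSE1, -0.52 to 0.33 for CSE2, -0.68 to 0.11 for CCoAOMT3, -0.81 to -0.34 for CCoAOMT1, -0.79 to -0.32 for CCoAOMT2 and -0.71 to -0.13 for HCT6, with the lowest value of all 8 without line 6. The highest value of each of the 8 was the one without line 1. The cause was not tested for any of these shifts. The alternatives on the make-up, the lower loci and the low- and high-share libraries were chosen after seeing the data. Counting error (0.578% to 2.24% in the lines) was smaller than the spread of CPM among the lines (7.27% to 13.7%) at these loci. No paired analysis was possible because a number marks a transgenic event in one group and only a replicate tree in the other.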
